A study of Mus musculus with 6 samples.

Results

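The genes described here handle cellular iron. The set holds 10 genes of the 38926 listed in the count tables: the transferrin receptors Tfrc and Tfr2, the endosomal genes Steap3 and Slc11a2, the ferritin chains Fth1 and Ftl1, the iron regulatory proteins Ireb2 and Aco1, the exporter Slc40a1 and the mitochondrial importer Slc25a37. They were chosen by name because Tfrc was known to be lower in the knockout, so the values of Tfrc between genotypes are given as a description and no test of them is offered. All 10 passed the filter on low counts, which left 13646 genes for testing.

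RNA was sequenced from hematopoietic stem cells (HSCs) sorted by surface markers from mouse fetal liver at E14.5. The 3 control samples came from embryos of genotype Vav-Cre; Dpy30F/+ and the 3 knockout samples from Vav-Cre; Dpy30F/- embryos, with 1 sample of each genotype from each of 3 litters. Every embryo carried Vav-Cre, a recombinase transgene active in blood-forming cells, and a floxed Dpy30 allele, so the controls keep a single allele after recombination and are not intact wild type. Dpy30 encodes a shared subunit of the complexes that methylate histone H3 at lysine 4, and the comparison asks which transcripts change when it is lost. The labels do not say how many embryos gave each sample.

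Between 31897737 and 43394700 counts per sample were given to genes. Dpy30 itself stood at 24.6, 24.2 and 31.6 counts per 1000000 counts given to genes (CPM, scaled between libraries) in controls 1 to 3 and at 7.93, 5.95 and 13.7 CPM in knockouts 1 to 3, with every knockout below every control. All 12 listed HSC markers had counts in every sample. Their summed level was 818, 845 and 850 CPM in controls 1 to 3 and 954, 1072 and 404 CPM in knockouts 1 to 3. Without knockout 3, 10 of the 12 had a positive log2 fold change (median 0.39). Both remaining knockouts then lay above every control for 6 and below for 1, against 12% and 12.9% of all tested genes. Knockout 3 stood apart in this sum, and in Hlf, a stem cell transcription factor, at 27.2 CPM against 146 to 230 CPM in the other 5 samples. The summed level of 14 macrophage markers was 353, 597 and 387 CPM in controls 1 to 3 and 874, 365 and 1768 CPM in knockouts 1 to 3, so knockout 3 also held the most of it. Values without knockout 3 are therefore given beside the results where it stands far from the other knockouts. In RNA of a sorted population, fewer cells of a type and less RNA per cell cannot be told apart.

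As background, iron reaches blood-forming cells bound to transferrin, which the receptor encoded by Tfrc (CD71) carries into endosomes. There a reductase of the STEAP family and the transporter DMT1 pass the iron to the cytosol, from which it goes to mitochondria, is stored in ferritin or leaves through ferroportin. When iron is scarce, the iron regulatory proteins bind hairpins called iron-responsive elements (IREs). Binding in the 3′ untranslated region (UTR) of the Tfrc messenger protects it from decay, and binding in the 5′ UTR of ferritin and ferroportin messengers blocks their translation, which counts of RNA do not measure. Tfrc is also known as a gene of dividing cells, which need iron for ribonucleotide reductase.

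The hairpins of the members are shown first because they are the sites through which iron acts on the messengers. Annotated UTRs of protein-coding transcripts (GENCODE M21, GRCm38) were searched on the transcript strand for a C, then 5 bases, the loop CAGTG with any base after it, and 5 more bases that pair with the 5 before the loop, G-T pairs allowed. Each line gives 29 bases, 5′ to 3′, with the 6-base loop in capitals.
Tfrc, chr16:32631219-32631247, plus strand, 3′ UTR: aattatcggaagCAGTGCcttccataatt
Tfrc, chr16:32631598-32631626, plus strand, 3′ UTR: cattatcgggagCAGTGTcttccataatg
Tfrc, chr16:32631663-32631691, plus strand, 3′ UTR: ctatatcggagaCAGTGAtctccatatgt
Tfrc, chr16:32631710-32631738, plus strand, 3′ UTR: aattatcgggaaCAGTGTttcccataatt
Fth1, chr19:9982732-9982760, plus strand, 5′ UTR: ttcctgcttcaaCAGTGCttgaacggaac
Ftl1, chr7:45459779-45459807, minus strand, 5′ UTR: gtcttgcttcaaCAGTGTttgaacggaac
Slc40a1, chr1:45925465-45925493, minus strand, 5′ UTR: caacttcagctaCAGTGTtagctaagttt

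Tfrc held 4 matches within 1 3′ UTR. The pattern is strict, so matches need not cover every IRE of a messenger. Of 21025 genes with an annotated 3′ UTR, 128 others held a single match and no other gene held more than 1. Among genes whose longest 3′ UTR was within 20% of the 2458 bases of Tfrc, 1.38% held a match. In 5′ UTRs a match was found in 31 of 20899 genes (0.148%), which included Fth1, Ftl1 and Slc40a1 among the members and Alas2 outside them. Slc11a2, whose messenger has isoforms with and without an IRE, held no match to these letters, and the counts do not separate its isoforms.

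Across all genes, edgeR's quasi-likelihood test with Benjamini-Hochberg adjustment called 0 of 13646 at the 0.05 threshold (0%). At the same threshold without adjustment it passed 888 (6.51%), of which 2.24% of all tested genes were lower and 4.26% higher in the knockout, and 3 members, Tfrc and Tfr2 (lower) and Fth1 (higher). None of the 10 members was therefore called, and adjusted p-values of the 9 members other than Tfrc lay between 0.686 and 0.990. DESeq2, run as another test, called 139 genes (1.02%; 0.256% lower and 0.762% higher) and 1 member, Tfrc, whose known difference was the reason for the choice. DESeq2 with litter as a block called 1.98% of genes and again Tfrc alone among the members. Nothing is read from these shares for Tfrc. Every knockout lay below every control for 2 of the 10 members, Tfrc and Tfr2, where 7.74% of all tested genes did so. The place of Tfrc in this count was given by its choice, and without it the count was 1 of 9. Every knockout lay above every control for 2 members, Fth1 and Aco1, against 6.39% of all tested genes. Without knockout 3, Steap3 and Slc25a37 joined the lower members, which made 4, Tfrc included, against 12.9% of all tested genes. The 2 higher members were the same against 12%. The median log2 fold change was 0.13 over the 9 members other than Tfrc and 0.01 over all tested genes.

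**Figure D1:**
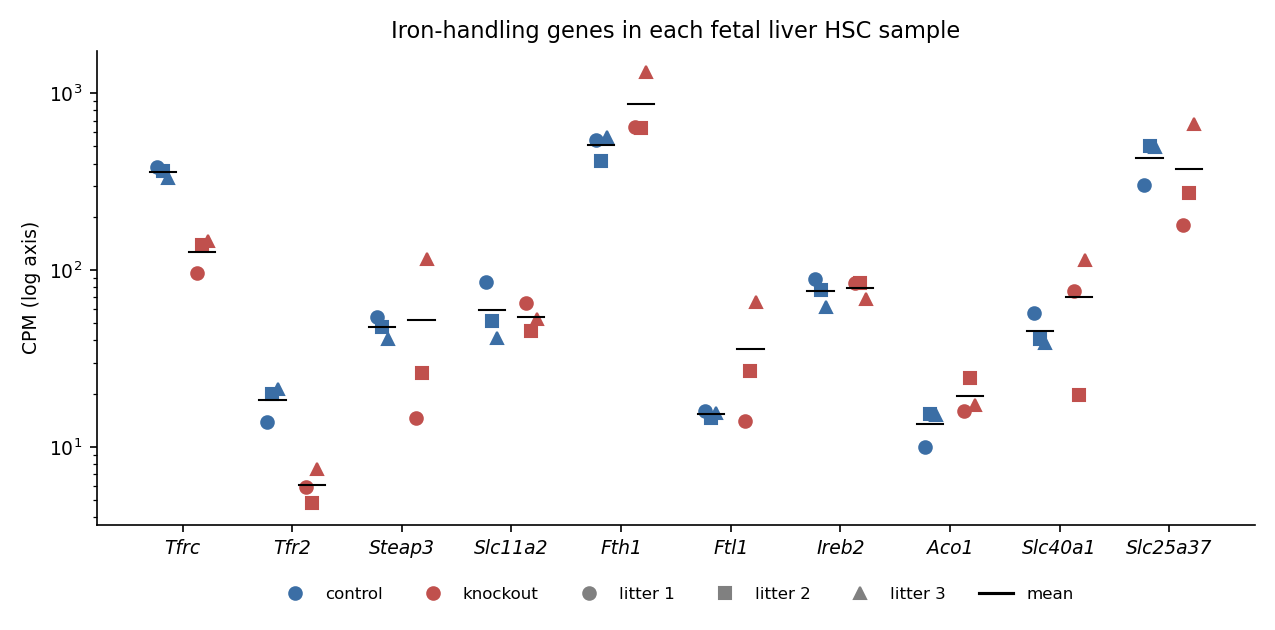
Level of each of the 10 iron-handling genes in CPM (log axis) in every sample. Circles, squares and triangles are litters 1, 2 and 3, blue is control, red is knockout and black lines are group means. Tfrc and Tfr2 (every knockout lower) and Fth1 and Aco1 (every knockout higher) have no overlap between genotypes. Knockout 3 is the highest sample for Steap3, Fth1, Ftl1, Slc40a1 and Slc25a37.

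The receptors come first in the path. Tfrc (ENSMUSG00000022797.16; chromosome 16, 32608920 to 32632794, plus strand, GRCm38) stood at 381, 364 and 332 CPM in controls 1 to 3. In knockouts 1 to 3 it stood at 96.6, 138 and 147 CPM. After scaling, the controls lay close together, and the highest knockout was far below the lowest control. This made a log2 fold change of -1.50 (SE 0.23), a level 2.83-fold lower in the knockout, and -1.60 without knockout 3. By litter, the log2 difference was -1.98, -1.40 and -1.18. The scaling factors between libraries were 0.747 for control 1 and 1.25 for knockout 1, against 0.990 to 1.05 for the other samples. Levels by sample and differences by litter, here and for Fth1, rest on this scaling, most of all in litter 1. Under scaling to library size alone, the log2 fold change of Tfrc was -1.31. Of 13646 tested genes, 1010 (7.40%) had a more negative log2 fold change, and of the 81 genes at or above Tfrc in mean control CPM, Tfrc included, 1 did. These ranks restate the fall for which Tfrc was chosen, and nothing further is read from them.

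Tfr2 (chromosome 5, 137569840 to 137587481), which encodes a second receptor that senses iron-loaded transferrin and binds the erythropoietin receptor in red cell precursors, was a low-level gene here. It stood at 13.9, 20.03 and 21.3 CPM in controls 1 to 3 and at 5.94, 4.82 and 7.54 CPM in knockouts 1 to 3. All 3 knockouts were below all 3 controls, as for Tfrc. Tfr2 had a log2 fold change of -1.59 (SE 0.49; edgeR adjusted p = 0.686), and it was -1.76 without knockout 3. The ratio of Tfrc to Tfr2 counts overlapped between genotypes, with 27.5, 18.2 and 15.6 for controls 1 to 3 against 16.3, 28.6 and 19.5 for knockouts 1 to 3.

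The endosomal genes did not share this pattern in every sample. Steap3 (chromosome 1, 120190757 to 120272705), the ferrireductase of erythroid endosomes, stood at 53.97, 47.7 and 40.8 CPM in controls 1 to 3. Its knockouts were spread over a wide range, at 14.6, 26.1 and 115 CPM. Knockouts 1 and 2 were below every control and knockout 3 was above every control. Over all samples Steap3 had a log2 fold change of 0.13 (SE 0.68; edgeR adjusted p = 0.990), while it was -1.21 (SE 0.36; edgeR adjusted p = 0.607) without knockout 3 and -0.47 with litter as a block.

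Slc11a2 (chromosome 15, 100387898 to 100425072), which encodes DMT1, stood at 85.8, 51.5 and 41.5 CPM in controls 1 to 3 and at 65.2, 45.1 and 52.95 CPM in knockouts 1 to 3. Its genotypes overlapped throughout. Slc11a2 had a log2 fold change of -0.13 (SE 0.34; edgeR adjusted p = 0.971), against the -1.50 of Tfrc, the other member known for IREs in the 3′ UTR. It turned to 0.23 without control 1 and to 0.16 under scaling to library size alone.

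**Figure D2:**
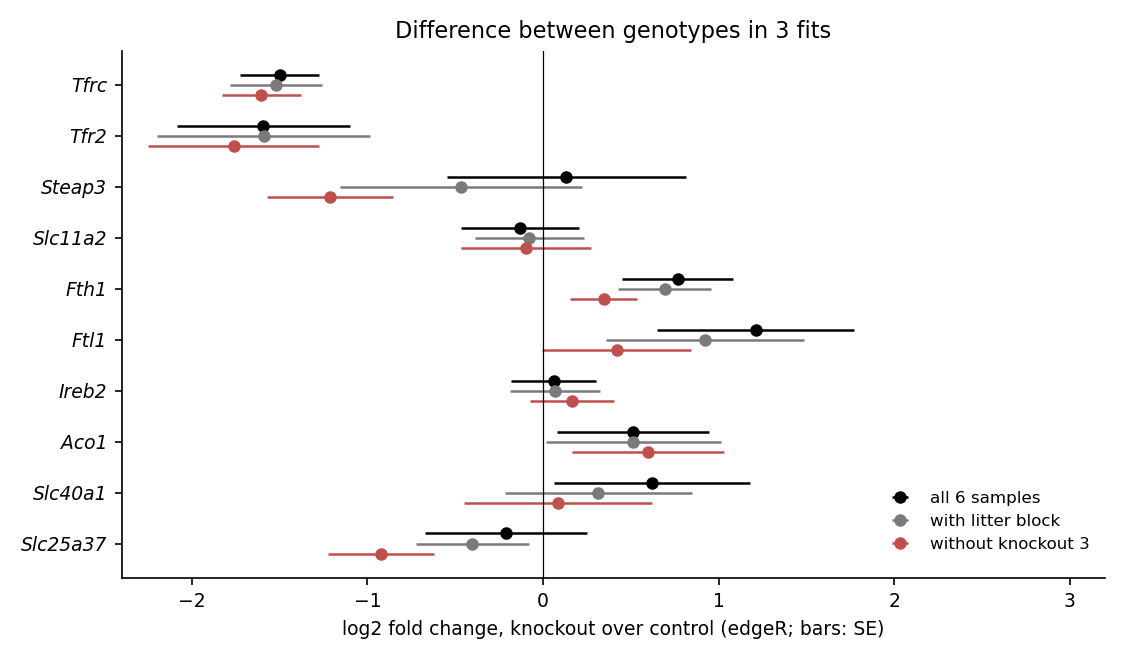
Log2 fold change of knockout over control for each member in edgeR (points; bars are standard errors) with all 6 samples in black, with litter as a block in grey and without knockout 3 in red. Tfrc and Tfr2 lie between -1.76 and -1.50 in all 3 fits, while Steap3 moves from 0.13 to -1.21 and Fth1 from 0.77 to 0.35 without knockout 3.

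The ferritin chains were on average higher in the knockout, most of all in knockout 3. Fth1 (chromosome 19, 9980598 to 9985098), the heavy chain that oxidises iron for storage, stood at 541, 415 and 565 CPM in controls 1 to 3 and at 644, 634 and 1312 CPM in knockouts 1 to 3. The genotypes did not overlap, but the gap between the highest control and the lowest knockout was small. Fth1 had a log2 fold change of 0.77 (SE 0.32; edgeR adjusted p = 0.758), and of 0.35 (SE 0.19; edgeR adjusted p = 0.721) without knockout 3. The log2 difference by litter was 0.25, 0.61 and 1.22.

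Ftl1 (chromosome 7, 45457944 to 45459884), the light chain, stood at 16.1, 14.6 and 15.6 CPM in controls 1 to 3 and at 14.1, 26.8 and 66.1 CPM in knockouts 1 to 3. Knockout 1 was below all controls and the other two were above them. Ftl1 had a log2 fold change of 1.21 (SE 0.56; edgeR adjusted p = 0.775), and of 0.42 without knockout 3. Both ferritin genes have processed pseudogenes in the mouse genome, and reads with more than 1 alignment, 13.4% to 18.3% of all reads per sample, were not given to genes. Their counts, and the ratio of Fth1 to Ftl1 counts (mean 32.8, SD 3.98 over the 3 controls; 29.8, SD 14.04 over the 3 knockouts), are uncertain for that reason.

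Ferroportin and the mitochondrial importer were also highest in knockout 3. Slc40a1 (chromosome 1, 45908068 to 45926523), the only known iron exporter of mammalian cells, stood at 57.2, 40.6 and 38.9 CPM in controls 1 to 3 and at 76.2, 19.6 and 114 CPM in knockouts 1 to 3. Knockouts 1 and 3 lay above all controls and knockout 2 below them. For Slc40a1 the log2 fold change came to 0.62 (SE 0.56; edgeR adjusted p = 0.894), and 0.09 without knockout 3 or 1.07 without knockout 2.

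Slc25a37 (chromosome 14, 69241848 to 69285112), mitoferrin 1, supplies iron for heme synthesis in red cell precursors. It stood at 302, 500.3 and 493 CPM in controls 1 to 3 and at 179, 273 and 668 CPM in knockouts 1 to 3. Knockouts 1 and 2 were below all controls and knockout 3 above them, the order seen for Steap3. For Slc25a37 the log2 fold change came to -0.21 (SE 0.46; edgeR adjusted p = 0.967), -0.92 (SE 0.30; edgeR adjusted p = 0.607) without knockout 3, and 0.12 without knockout 1.

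The RNAs of the iron regulatory proteins were read next. Ireb2 (chromosome 9, 54863789 to 54912530), which encodes IRP2, stood at 89.4, 77.6 and 62.1 CPM in controls 1 to 3 and at 84.8, 84.9 and 69.1 CPM in knockouts 1 to 3. These ranges overlapped, with a log2 fold change of 0.06 (SE 0.24; edgeR adjusted p = 0.983) that was -0.053 under upper-quartile scaling and -0.069 without control 3. Aco1 (chromosome 4, 40143081 to 40198338), which encodes IRP1, a protein that is a cytosolic aconitase when it holds an iron-sulfur cluster, stood at 10.05, 15.4 and 15.2 CPM in controls 1 to 3. Its knockouts stood at 16.1, 24.6 and 17.3 CPM. They were all above the controls, by 0.51 on the log2 scale (SE 0.43; edgeR adjusted p = 0.884). Both proteins are set mainly after transcription, by turnover of IRP2 and by the cluster of IRP1, and neither was measured.

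Levels of different members were compared per length, as CPM per kilobase of all annotated exons. In controls Fth1 was highest at 146 ± 23.1, followed by Slc25a37 at 71.7 ± 18.7 and Tfrc at 58.1 ± 4.04 (SD, n = 3). The ranges of Slc25a37 and Tfrc overlapped, and with the length of the longest transcript Tfrc ranked 2 in place of 3. Ftl1 came next at 11.5 ± 0.554, then Slc11a2 at 9.38 ± 3.66, Steap3 at 8.31 ± 1.15, Ireb2 at 8.05 ± 1.44, Slc40a1 at 5.06 ± 1.12, Tfr2 at 4.25 ± 0.917 and Aco1 at 3.01 ± 0.674 CPM per kilobase. From Ftl1 down, the control ranges of neighbours in this order overlapped, except that Slc40a1 lay wholly below Ireb2. In knockouts Tfrc stood at 20.5 ± 4.32 and Ftl1 at 26.6 ± 20.3 CPM per kilobase, so the place of Tfrc above Ftl1 was no longer clear of the spread.

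The level of Tfrc was then set beside genes of cell division in the same libraries, from a list of DNA replication and mitosis genes. Of 31 tested members of that list, edgeR called 0, 27 had a negative log2 fold change, and every knockout lay below every control for 7 and above for 0, where 7.74% and 6.39% of all tested genes did so. The median log2 fold change was -0.37, against 0.01 over all tested genes, and -0.30 without knockout 3. Mki67, the Ki-67 antigen gene, stood at 873, 1215 and 1474 CPM in controls 1 to 3 and at 943, 821 and 1499 CPM in knockouts 1 to 3, with a log2 fold change of -0.13 (SE 0.29; edgeR adjusted p = 0.967) that was -0.42 without knockout 3. The ranges of Mki67 overlapped fully. Mcm5, of the replicative helicase, had a log2 fold change of -0.42 (SE 0.31; edgeR adjusted p = 0.868), and of -0.18 without knockout 3. The lowest values were those of Cdc20, an activator of the anaphase-promoting complex (log2 fold change -1.82), Gins2 (-1.13) and Cdc6 (-1.02), both needed for replication to start, with edgeR adjusted p-values of 0.668, 0.775 and 0.729.

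The mean log2 CPM of the list was 6.20 (SD 0.06) over the 3 controls and 5.73 (SD 0.25) over the 3 knockouts, a difference of -0.48, where that of Tfrc on the same scale was -1.52. Tfrc minus this mean came to 2.42, 2.32 and 2.11 for controls 1 to 3 against 0.85, 1.15 and 1.73 for knockouts 1 to 3. The difference between the genotypes was thus -1.04, with no overlap, and -1.29 without knockout 3. Tfrc was chosen for its known fall and the list was not. A gap of this direction therefore follows in part from the choice, and these values are a description and no test. By litter it was -1.57, -1.18 and -0.38, so it was smallest in litter 3, where the proliferation list itself was lowest in the knockout. Against DNA replication genes alone it was -1.09, and against mitosis genes alone -1.0025. Of the 31 genes, 1, Cdc20, had a more negative log2 fold change than Tfrc.

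MYC, a transcription factor for which Tfrc is a textbook target, was also followed. Myc itself stood at 211, 179 and 211 CPM in controls 1 to 3 and at 297, 347 and 209 CPM in knockouts 1 to 3 (log2 fold change 0.50, SE 0.24; edgeR adjusted p = 0.775). Without knockout 3 the log2 fold change of Myc was 0.70 (SE 0.19; edgeR adjusted p = 0.607). The median log2 fold change over Myc, Mycn and 8 known targets was -0.22, and edgeR called 0 of the 10. Without knockout 3 that median was -0.16. The remaining knockouts then lay above every control for 2 of the 10 and below for 3, against 12% and 12.9% of all tested genes. With all samples, every knockout lay below every control for 2 of the 10 and above for 0, where 7.74% and 6.39% of all tested genes did so. The 2 were Npm1 and Ncl, both of the nucleolus, with log2 fold changes of -0.70 and -0.44 (edgeR adjusted p = 0.750 and 0.759). Tfrc minus the mean of these 10 genes averaged 1.30 (SD 0.15) over the 3 controls and -0.0030 (SD 0.49) over the 3 knockouts. This too is a description, because Tfrc was chosen for its fall.

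**Figure D3:**
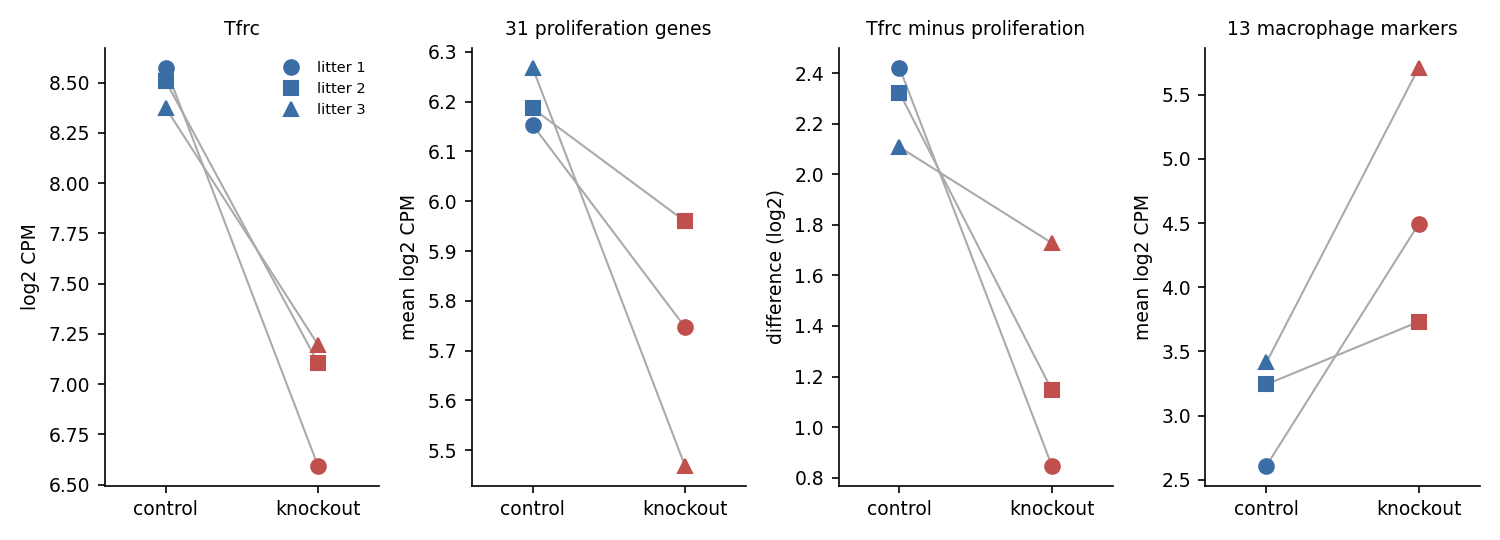
Tfrc in log2 CPM, the mean log2 CPM of 31 proliferation genes, the difference between Tfrc and that mean, and the mean log2 CPM of 13 tested macrophage markers, in controls (blue) and knockouts (red), with grey lines joining samples of a litter. The difference between Tfrc and the proliferation mean runs from 2.11 to 2.42 in controls and from 0.85 to 1.73 in knockouts.

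Other genes known for IREs were read next. Alas2, the erythroid enzyme that starts heme synthesis, stood at 15.4, 30.1 and 27.9 CPM in controls 1 to 3 and at 15.3, 38.7 and 63.9 CPM in knockouts 1 to 3, with a log2 fold change of 0.68 (SE 0.54) over all samples and 0.15 without knockout 3. Epas1, the hypoxia factor HIF-2 alpha, had 59.2 ± 13.04 CPM over controls against 39.96 ± 38.6 CPM over knockouts (SD, n = 3 each). Cdc14a and Cdc42bpa, which have isoforms with an IRE in the 3′ UTR as Tfrc does, had log2 fold changes of 0.98 (SE 0.56) and 0.04 (SE 0.29). edgeR called 0 of the 5 genes on this list (adjusted p = 0.819 to 0.990), and the genotypes overlapped for each.

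The rest of iron metabolism was covered by a list of 55 other genes, of which 45 were tested. edgeR called 0 of them. DESeq2 called 1 as higher (Hmox1), where it called 0.762% of all tested genes as higher. Of the 45, 30 had a positive and 15 a negative log2 fold change. Their median log2 fold change was 0.19. Every knockout was above every control for 2, Lcn2 and Hscb, and below for 0, where 6.39% and 7.74% of all tested genes were. Without knockout 3 these counts were 3 and 4, against 12% and 12.9% of all tested genes. Hmox1, the heme oxygenase that frees iron from heme and is abundant in macrophages, stood at 43.03, 27.9 and 35.9 CPM in controls 1 to 3. In knockouts 1 to 3 it stood at 135, 39.8 and 218 CPM. Knockouts 1 and 3 were far above the controls and knockout 2 was within their range (log2 fold change 1.88, SE 0.55; edgeR adjusted p = 0.672; DESeq2 adjusted p = 0.0356). Without knockout 3 its log2 fold change was 1.31.

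Knockouts 1 and 3 were also the samples with the highest Slc40a1 and the highest summed macrophage markers. Of 13 tested macrophage markers, 11 had a positive log2 fold change, and every knockout was above every control for 6, where 6.39% of all tested genes were. edgeR called 0 of the 13 and 0% of all tested genes. DESeq2 called 3 as higher, Csf1r, C1qb and Lyz2, where it called 0.762% of all tested genes as higher. The median log2 fold change was 2.13, and 1.29 without knockout 3. Slc11a1, the transporter of macrophage phagosomes, stood at 0.794, 2.75 and 1.88 CPM in controls 1 to 3 and at 3.77, 7.03 and 18.8 CPM in knockouts 1 to 3. Cd163, the hemoglobin scavenger receptor of iron-recycling macrophages, did not pass the filter and was at most 1.06 CPM in any sample. The part of macrophage RNA in the values of Hmox1, Slc40a1, Fth1 and Ftl1 was not tested.

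Lcn2, a granule protein that binds iron carriers of bacteria, stood at 5.04, 0.0802 and 0 CPM in controls 1 to 3 and at 6.09, 8.49 and 86.2 CPM in knockouts 1 to 3 (edgeR adjusted p = 0.775). Its log2 fold change, which depends on the prior count, was 4.31 (SE 1.95) with knockout 3 and 2.11 (SE 1.97) without it. The 0 in control 3 allows a level of up to 0.0680 CPM, that of 3 counts. Hscb, a co-chaperone of iron-sulfur cluster assembly, stood at 14.1 ± 1.99 CPM over controls against 27.0 ± 8.21 CPM over knockouts (SD, n = 3 each; log2 fold change 0.93, SE 0.40; edgeR adjusted p = 0.766), with a log2 fold change of 0.71 without knockout 3. Genes that act on ferritin and IRP2 differed between genotypes by less than the larger SD. Ncoa4, the receptor for ferritin breakdown, had 14.8 ± 3.50 CPM over controls against 24.5 ± 11.8 CPM over knockouts, and Fbxl5, the iron-sensing ligase subunit that marks IRP2 for decay, had 22.7 ± 11.1 and 15.1 ± 4.12 CPM (SD, n = 3 each; edgeR adjusted p = 0.849 and 0.891).

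The remaining named genes of the list serve chaperoning, mitochondrial transport and sensing. Pcbp1, an iron chaperone that loads ferritin, had a log2 fold change of 0.19 (SE 0.36), and Slc25a28, mitoferrin 2, 0.10 (SE 0.68). Hfe, a partner of the transferrin receptors, stood between 1.14 and 4.78 CPM in all samples. Trf, which encodes transferrin, a liver product, was at most 2.83 CPM in any sample.

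**Figure D4:**
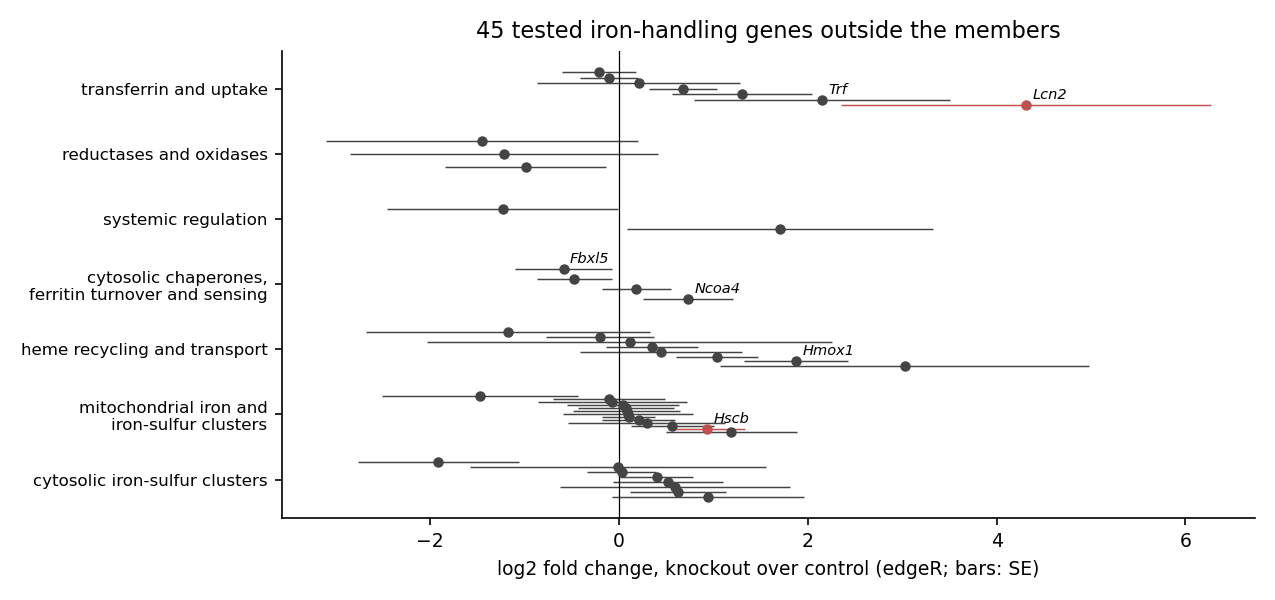
Log2 fold change of knockout over control in edgeR (points; bars are standard errors) for the 45 tested iron-handling genes outside the members, by role. Red marks Lcn2 and Hscb, the 2 of 45 genes with every knockout above every control (6.39% of all tested genes were), and the values run from -1.91 to 4.31.

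Erythroid genes were read beside Tfrc because red cell precursors carry the receptor in large amounts. The summed level of 13 erythroid markers was 1186, 2427 and 2478 CPM in controls 1 to 3 and 1075, 1265 and 3068 CPM in knockouts 1 to 3. It overlapped between genotypes and was highest in knockout 3, whose Tfrc was below every control. Their median log2 fold change was -0.51, with 8 of 13 negative and 0 called by edgeR. Every knockout lay below every control for 0 of the 13 and above for 0, where 7.74% and 6.39% of all tested genes did so. Without knockout 3 their median log2 fold change was -0.98, 13 of 13 were negative, and both remaining knockouts lay below every control for 6, against 12.9% of all tested genes. The summed level of 8 hepatocyte markers was 5.25, 9.25 and 22.2 CPM for controls 1 to 3 against 4.43, 3.28 and 5.06 CPM for knockouts 1 to 3, with every knockout below every control. The part of red cell precursors or hepatocytes in the levels of Tfrc, Tfr2, Steap3 and Slc25a37 was not tested.

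The genes whose levels were most like Tfrc over the 6 samples, by Pearson correlation of log2 CPM among 6760 named genes with a mean of at least 10 CPM, were Ncapg2 (r = 0.991), Nudt9 (0.988), Sec13 (0.983), Tnpo2 (0.983) and Lars (0.975). These points share 2 genotypes, so the correlations largely restate the difference between them. Nudt9, which encodes an ADP-ribose hydrolase, was closest to Tfrc in size of difference, at 31.8 ± 3.25 CPM over controls against 11.6 ± 2.09 CPM over knockouts (SD, n = 3 each; log2 fold change -1.45, SE 0.37; edgeR adjusted p = 0.622). Ncapg2, of the condensin II complex, stood at 80.6 ± 0.374 against 46.2 ± 6.40 CPM. Among the members, Tfr2 was most like Tfrc (r = 0.913), and the other 8 lay between -0.62 and 0.45.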

How the data were processed

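Sorted fetal liver HSCs of 3 control and 3 Dpy30 knockout samples were profiled by poly(A) RNA sequencing. What the authors deposited is a raw count for every gene symbol, one table a sample. The submitters' processing notes name CASAVA 1.8.4, TopHat2, Picard 1.126, HTSeq 0.6.0, DESeq 3.0, bedtools 2.17.0 and build mm10, without saying what each did; strandedness is not given in the sources used here. The 5 closing tallies of reads given to no gene (41.0% to 51.0% of reads) stayed out of library sizes.

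Genes were filtered with filterByExpr, scaled by TMM and tested without a litter term by edgeR's quasi-likelihood test (edgeR 4.0.16, R 4.3.3; Benjamini-Hochberg over 13646 genes, threshold 0.05). CPM uses TMM-scaled library sizes and log2 CPM a prior count of 2. Standard errors were derived from the log2 fold change and its F statistic. The labels pair samples by litter; correlations of same-litter deviations from genotype means were -0.022, -0.075 and 0.0034. DESeq2 1.42.0, limma-voom (limma 3.58.1), other scalings and filters, the litter block and leaving out each sample were alternatives. The edgeR and DESeq2 steps were also run on simulated counts with less spread between samples than these data show.

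The members and lists were chosen with earlier results of these data known. Named were the members, Dpy30, 8 genes of the iron list that were named whatever their values, the IRE-bearing genes, Mki67, Mcm5 and Myc, per list up to 8 (iron) or 3 further genes of at least 5 CPM without overlap, and the 5 genes most like Tfrc. Some genes that this rule names are not reported here. Macrophage and HSC markers were named, and values of listed genes without knockout 3 added, after the data were seen. Of 160 list symbols 159 were found, 4 by an older symbol. Samples of a genotype came from different litters, and the number of embryos in each is not given in the sources used here. Intervals and floors cover counting error only.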

Additional observations from a re-analysis of the deposited data

How the results depend on the processing

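The common biological coefficient of variation, a single value over the tested genes, was 0.817. The precision of a single gene is given by its own standard error, such as 0.23 for Tfrc and 0.68 for Steap3. The count of genes past the threshold was 0 in edgeR and limma-voom fits, replicate block included, except that it was 1, higher in the knockout, without a filter on low counts and with at least 10 counts in every sample. DESeq2 called 139 genes (104 higher, 35 lower), and DESeq2 with the litter block, added after the data were seen, 270 (152 higher, 118 lower). Members called were 1, Tfrc, in both DESeq2 fits, where its log2 fold change was -1.48 and -1.50, and 0 elsewhere. Leaving out 1 sample at a time gave 0 calls throughout and a Tfrc log2 fold change from -1.60 to -1.34. Over all settings it ran more widely, from -1.63 under upper-quartile scaling to -1.31 with library size only. With the litter block in edgeR, the pairing of the labels, Tfrc had -1.52 and no call changed.

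The sign of Steap3 turned under the block (-0.47), limma-voom (-0.44), upper-quartile scaling (-0.058), DESeq2 with the block (-0.45) and without knockout 3, with a range of -1.21 to 0.57 when 1 sample was left out. That of Slc11a2 turned with library size only (0.16) and without control 1 (range -0.33 to 0.23), that of Ireb2 under upper-quartile scaling (-0.053) and without control 3 (range -0.069 to 0.19), and that of Slc25a37 without knockout 1 (range -0.92 to 0.12). The median of the 9 members other than Tfrc was -0.053 under upper-quartile scaling, and 0.03 to 0.55 with 1 sample left out. That of the other iron-handling list was 0.44 with library size only, a scaling that moved the median of all genes by 0.21. The causes were not tested. Members with no overlap between genotypes numbered 2 to 4 lower, the chosen Tfrc always included, and 2 to 3 higher with 1 sample left out. Of 45 other iron-handling genes, 0 to 6 were lower and 3 to 7 higher, where fewer samples make such separation easier by construction. Over all tested genes, the shares in the same settings were 11.7% to 18% lower and 8.93% to 13.3% higher. Tfrc relative to the proliferation list lay between -1.29 and -0.85 with 1 sample left out. Tfrc ranked 2 rather than 3 in controls with the longest transcript as length.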
